A study of Rattus norvegicus with 15 samples.

Results

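Cultured rat aortic smooth muscle cells (SMC) of a line named Myocd-LSD1 were compared with control SMC by polyA RNA-seq. The 8 libraries, 4 of the line and 4 labelled Ctrl SMC, were taken by name from the 15 libraries of the study. Of 32623 gene entries, 12207 with a level of at least 1 TPM (transcripts per 1000000) in at least 3 of the 15 libraries were tested. Both groups are labelled untreated and were kept for 72 h in a medium free of serum and insulin before harvest; the control cells are labelled WT for cell line. The other libraries were 4 of a line named Myocd-LSD1NF, starved in the same way, and 3 of WT cells starved for 48 h and then given PDGF-BB, a platelet-derived growth factor, at 30 ng/ml for a further 24 h.

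Myocardin (Myocd) is a coactivator of serum response factor (SRF), which binds CArG boxes in the promoters and introns of contractile genes and so sets the contractile identity of SMC. LSD1, encoded by Kdm1a, removes methyl groups from lysine 4 of histone H3, a mark of active regulatory regions. The series design states that the fusion of both was used to remove H3K4me2 from SMC genes. The sources used here do not give the promoter that drives the fusion, whether the line is 1 clone, or what NF stands for. The fusion itself and anything else in which the line differs from control SMC cannot be told apart.

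The deposited values are TPM, scaled by the authors to the same total in every library, and depth, which TPM does not keep, is unknown. No label says whether the libraries of a group are separate cultures, and p-values measure the spread between libraries only, which may be technical. That spread is estimated per gene over all 15 libraries, so each SE and p-value also carries the spread within the Myocd-LSD1NF and PDGF-BB groups. Library 4 of Myocd-LSD1NF lay far from its group for some genes. It read 0.65 TPM of Nid1 (others 34.41 to 46.67) and 2292 TPM of Eln (others 7791 to 8543). For other genes, such as Cnn1 (811.93 TPM, others 565.56 to 926.9), it lay within the group. Log2 fold changes are Myocd-LSD1 minus control on the log2(TPM + 1) scale, given ± SE, and understate the change of low genes. Adjusted p-values are from limma with Benjamini-Hochberg adjustment, and genes under 0.05 were called and are said to have risen or fallen. Libraries correlated at 0.978 to 0.989 within control, at 0.961 to 0.987 within Myocd-LSD1 and at 0.889 to 0.926 between the groups (Pearson, log2 scale). Myocd-LSD1 libraries 2 and 4 differed from libraries 1 and 3 in many genes. List counts without libraries 2 and 4 are therefore given where the count in either direction differs by over 1.5 times.

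Myocd read 26.8, 26.2, 27.6 and 30.6 TPM in control libraries 1 to 4 and 0.56, 0.19, 0.34 and 0.15 TPM in Myocd-LSD1 libraries 1 to 4. Every Myocd-LSD1 value was far below every control value (log2 fold change -4.47 ± 0.24, adjusted p = 4.73e-09). Kdm1a read 57.9, 54.6, 57.5 and 50.4 TPM in control and 67.1, 64.8, 67.7 and 58.7 TPM in Myocd-LSD1, with a log2 fold change of 0.22 ± 0.10 that did not pass (adjusted p = 0.0874). Which parts of either transcript the construct holds is not stated, and neither gene was called higher in the line.

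Across all tested genes 3936 were called, which is 32.2%, with 2062 higher (16.9%) and 1874 lower (15.4%). Without Myocd-LSD1 libraries 2 and 4 the counts were 1755 higher (14.4%) and 1229 lower (10.1%). The median log2 fold change over all genes was 0.03, or 0.11 without those libraries. The list counts below are read against these shares, and the lists and their members were chosen with earlier results of these data known.

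**Figure D1:**
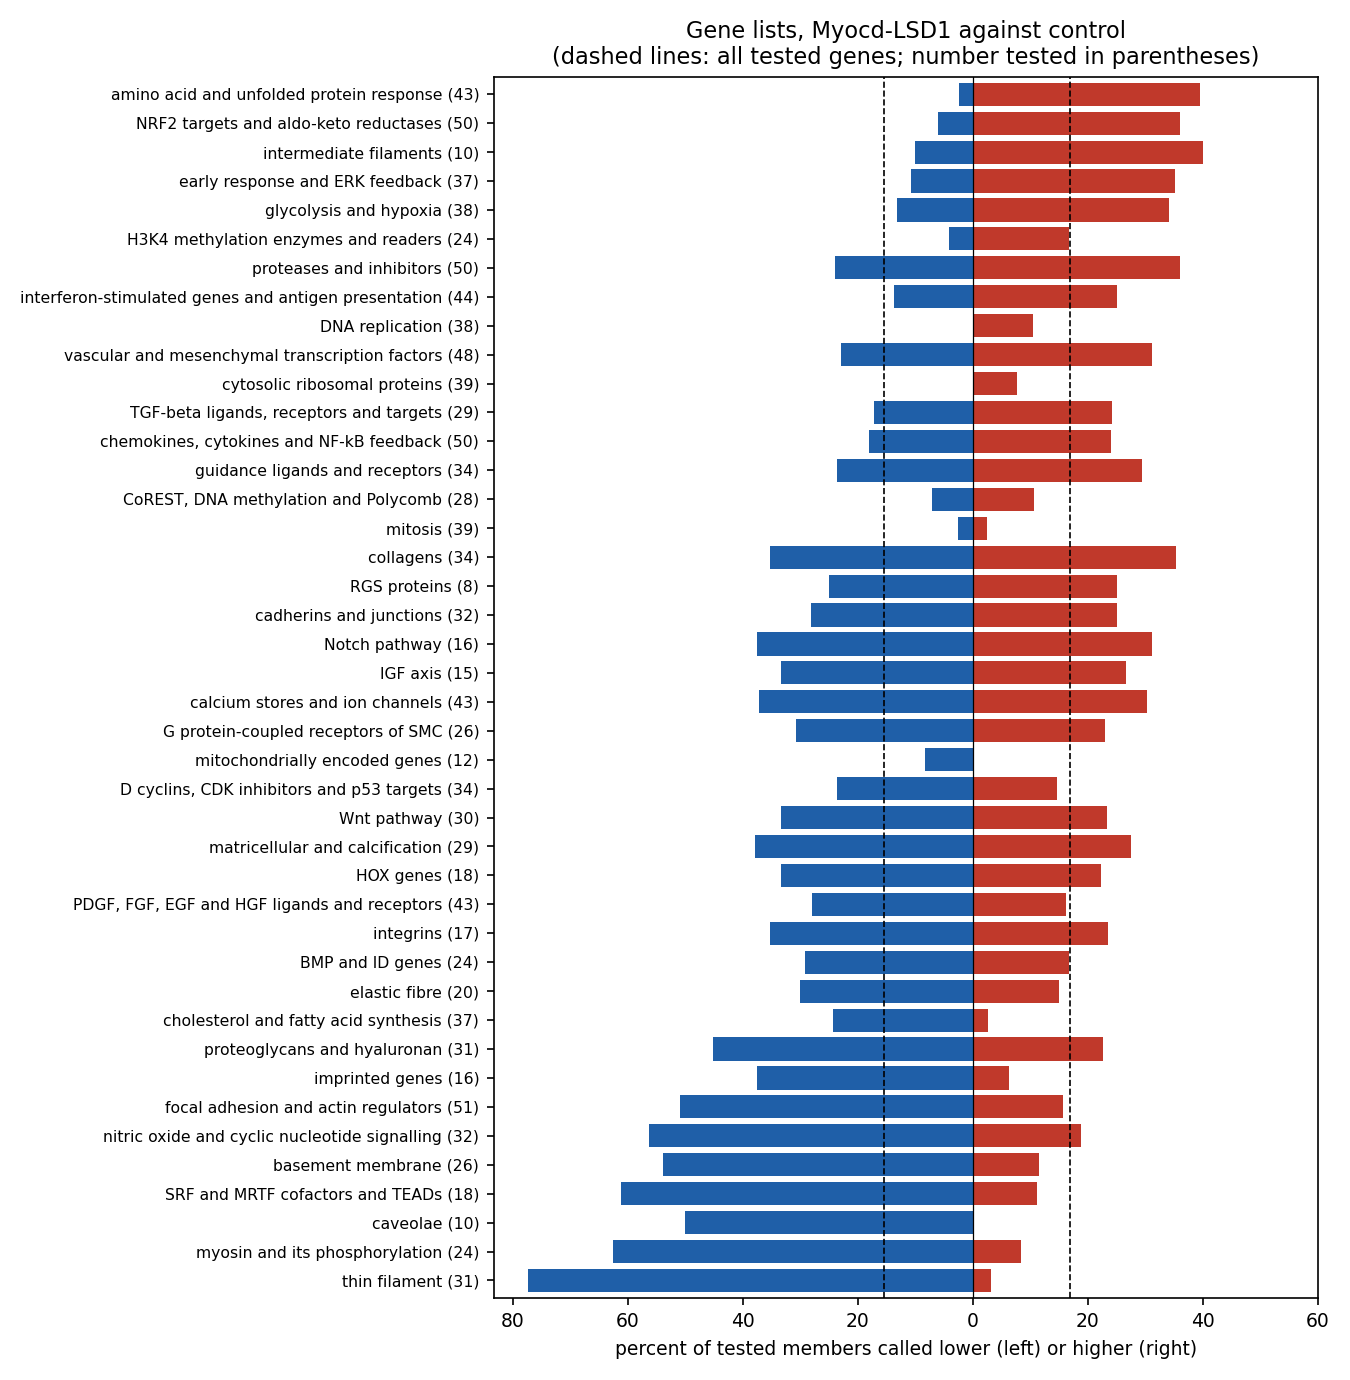
Share of the tested members of each gene list called higher (right, red) or lower (left, blue) in Myocd-LSD1 against control, in percent, with the number tested in parentheses. Dashed lines mark the shares over all 12207 genes (16.9% higher, 15.4% lower). The thin filament, myosin, SRF, nitric oxide and basement membrane lists lie far to the left, and the amino acid response and NRF2 lists to the right. All libraries are used. Without Myocd-LSD1 libraries 2 and 4 the amino acid response list had 8 of 43 genes higher, against 17. The SRF list then had 6 of 18 lower, against 11.

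Genes of the thin filament, the actin cable along which smooth muscle contracts, were lower almost throughout. Of 31 tested, 24 fell and 1 rose, with a median log2 fold change of -1.16, beside 15.4% and 16.9% of all genes and a median of 0.03. The counts were 20 and 2 without libraries 2 and 4. Acta2, smooth muscle alpha-actin, read 9197, 9789, 10783 and 9103 TPM in control libraries 1 to 4 and 1634, 1585, 2894 and 2196 TPM in Myocd-LSD1 libraries 1 to 4. All 4 Myocd-LSD1 values lay below all 4 controls, and library 3 kept the most Acta2 (log2 fold change -2.27 ± 0.31, adjusted p = 4.8e-05). Tpm2, the beta-tropomyosin that lies along the actin filament, read 4359, 5515, 5369 and 3859 TPM in control. It read 744, 746, 818 and 763 TPM in Myocd-LSD1, a tight range well below control (log2 fold change -2.62 ± 0.19, adjusted p = 1.4e-07).

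Cnn1, calponin, which binds actin and restrains myosin, read 1219.7, 1485, 1543 and 1109 TPM in control and 63.2, 7, 128 and 6.24 TPM in Myocd-LSD1. The groups did not overlap, but libraries 1 and 3 of the line held many times the level of libraries 2 and 4 (log2 fold change -5.66 ± 0.69, adjusted p = 1.93e-05). Its log2 fold change was -3.87, adjusted p = 5.23e-07 without libraries 2 and 4, and ranged from -6.42 to -5.04 when a single Myocd-LSD1 library was left out. Lmod1, leiomodin, which nucleates actin filaments, read 128, 143, 148 and 82.8 TPM in control and 6.31, 9.92, 11.3 and 16.7 TPM in Myocd-LSD1, so that all its Myocd-LSD1 values were low (log2 fold change -3.43 ± 0.32). Fhl1, a LIM domain protein of muscle, fell from 1786 ± 253 to 278 ± 99.9 TPM (mean ± SD, n = 4 and 4). Other genes of the actin cable changed to a like degree, and Cald1 (caldesmon), Tpm1 (alpha-tropomyosin) and Tagln (transgelin) fell with log2 fold changes of -2.09 ± 0.21, -2.05 ± 0.19 and -1.94 ± 0.20. The alpha-actinins Actn1 and Actn4, which crosslink actin, had log2 fold changes of -1.26 ± 0.20 and -0.58 ± 0.11.

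The cytoplasmic actins and the non-muscle paralogs behaved differently. Actg1, cytoplasmic gamma-actin, read 4598, 4492, 4727 and 4151 TPM in control and 4593, 4253, 5237 and 3945 TPM in Myocd-LSD1, so that the groups overlapped (log2 fold change -0.00 ± 0.13, adjusted p = 0.995). Actb, cytoplasmic beta-actin, passed narrowly with a log2 fold change of -0.40 ± 0.14 (adjusted p = 0.0426). It did not pass without libraries 2 and 4 (-0.25, adjusted p = 0.343), nor with Myocd-LSD1 library 1, 2 or 4 or control 1, 2 or 3 left out alone. How reads shared by the closely alike actin genes were divided is not stated, so actin values are uncertain to that extent. Tagln2, the transgelin found outside muscle, was the 1 member of the list that rose with all libraries, from 406, 372, 484 and 562 TPM to 966, 953, 972 and 816 TPM (log2 fold change 1.04 ± 0.19, adjusted p = 0.000762). Tagln fell and Tagln2 rose in every library of the line relative to every control. Tpm3, Fhl2, Pdlim5, Svil and Tes did not pass, at log2 fold changes of 0.27 ± 0.12, -0.05 ± 0.22, -0.15 ± 0.16, 0.00 ± 0.32 and -0.47 ± 0.21. Tpm3 passed as a rise without libraries 2 and 4 (0.42, adjusted p = 0.0432).

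**Figure D2:**
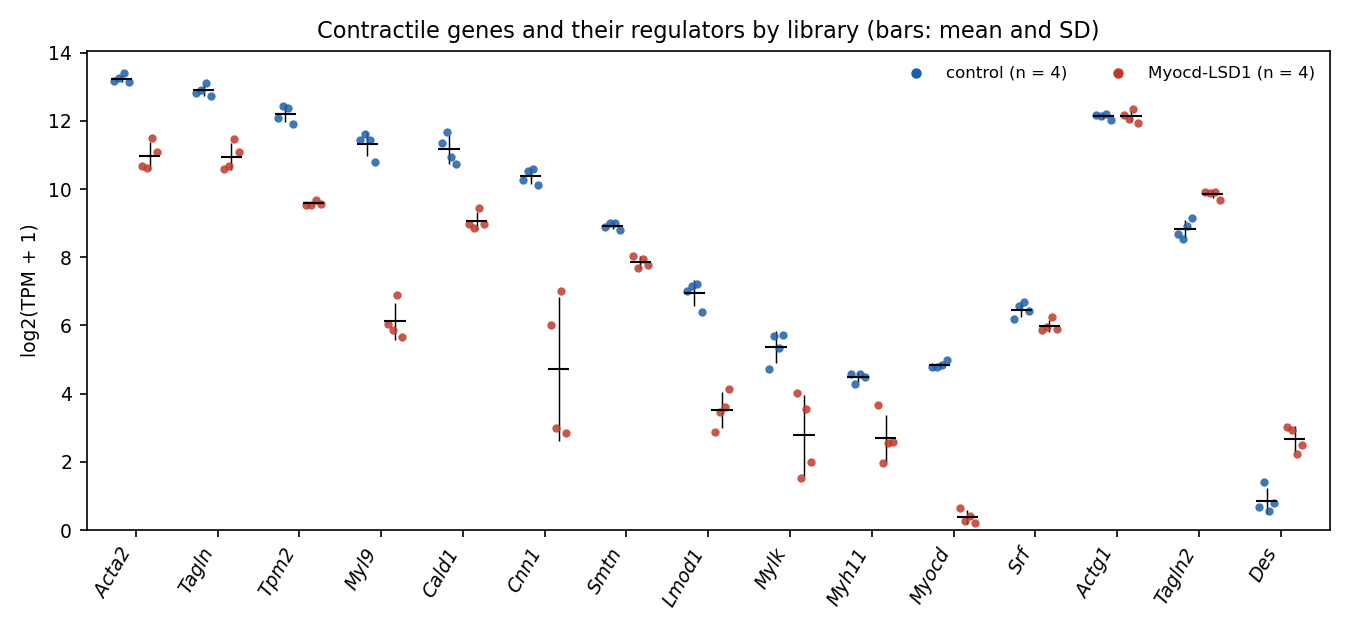
Level of 15 genes on the log2(TPM + 1) scale in each of the 4 control (blue) and 4 Myocd-LSD1 (red) libraries, with the group mean and SD as bars. From Acta2 to Myocd the Myocd-LSD1 points lie below the control points, Cnn1 and Mylk spread widely among the Myocd-LSD1 libraries, Actg1 overlaps, and Tagln2 and Des lie higher.

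Myosin and the enzymes that set its phosphorylation followed. Of 24 tested genes 15 fell and 2 rose, with a median log2 fold change of -0.63, or 12 and 1 without libraries 2 and 4. Myl9, the regulatory light chain of smooth muscle myosin, read 2772, 3155, 2755 and 1771 TPM in control and 64.9, 57.1, 119 and 49.5 TPM in Myocd-LSD1. No Myocd-LSD1 library came near the controls (log2 fold change -5.20 ± 0.40, adjusted p = 2.19e-07). Mylk, the kinase that phosphorylates this light chain, read 25.4, 50.6, 39.7 and 51.5 TPM in control and 15.2, 1.91, 10.8 and 2.98 TPM in Myocd-LSD1, lowest in libraries 2 and 4 (log2 fold change -2.59 ± 0.46, adjusted p = 0.000562, against -1.58, adjusted p = 0.00578 without them). Ppp1r12b, a targeting subunit of the opposing enzyme myosin phosphatase, also fell (log2 fold change -2.46 ± 0.25). So did Ppp1r14a, CPI-17, which inhibits that phosphatase (-3.60 ± 0.41). Rock1, a kinase that inhibits myosin phosphatase, read 89.2, 125, 109.8 and 95.7 TPM in control and 48.6, 48.7, 48.1 and 49.3 TPM in Myocd-LSD1. Its Myocd-LSD1 values were close to each other and below all controls (log2 fold change -1.08 ± 0.16). Smooth muscle myosin heavy chain Myh11 fell (log2 fold change -1.80 ± 0.41) but did not pass without libraries 2 and 4 (-1.39, adjusted p = 0.0546). The non-muscle heavy chain Myh9 read 2.36, 2.26, 3.63 and 0 TPM in control and 6.78, 6.02, 19.7 and 0.54 TPM in Myocd-LSD1, a wide overlap that did not pass (adjusted p = 0.23), though it passed without Myocd-LSD1 library 4 (log2 fold change 1.96, adjusted p = 0.0487). These levels are low for a myosin of cultured cells, the counting behind them is not stated, and they are uncertain.

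Of 10 genes of caveolae, the membrane pits that gather signalling proteins in SMC, 5 fell and 0 rose, or 3 and 0 without libraries 2 and 4. Cav1, the main caveolin, read 2225, 1898, 2172 and 1862 TPM in control and 656, 452, 778 and 599 TPM in Myocd-LSD1. Its groups stood well apart (log2 fold change -1.74 ± 0.16, adjusted p = 1.11e-06), and Cav2 and the muscle caveolin Cav3 had log2 fold changes of -1.15 ± 0.13 and -2.44 ± 0.27. Among 10 intermediate filament genes 4 rose and 1 fell. Des, desmin, the muscle intermediate filament, rose from 0.61, 1.67, 0.47 and 0.73 TPM to 7.08, 6.64, 3.71 and 4.61 TPM (log2 fold change 1.81 ± 0.23), so it moved against the contractile genes at a low level. Vim, vimentin, did not pass (log2 fold change -0.04 ± 0.11).

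The promoters of contractile genes that moved and of some that did not are shown here because both kinds hold the SRF motif. Promoters run from 250 bases before to 50 after the start of transcription (RefSeq, build GRCr8), and capitals mark CArG boxes (CC, 6 bases of A or T, GG) or CArG-like runs with 1 other base within the 6.
Acta2, chr1:241172454-241172753, minus strand: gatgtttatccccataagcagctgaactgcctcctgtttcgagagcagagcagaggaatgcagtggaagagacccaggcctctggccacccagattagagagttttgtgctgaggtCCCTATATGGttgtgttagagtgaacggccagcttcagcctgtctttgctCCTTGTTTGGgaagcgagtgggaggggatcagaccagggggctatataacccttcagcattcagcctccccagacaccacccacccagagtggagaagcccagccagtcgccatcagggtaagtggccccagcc
Fhl1, chrX:139638246-139638545, plus strand: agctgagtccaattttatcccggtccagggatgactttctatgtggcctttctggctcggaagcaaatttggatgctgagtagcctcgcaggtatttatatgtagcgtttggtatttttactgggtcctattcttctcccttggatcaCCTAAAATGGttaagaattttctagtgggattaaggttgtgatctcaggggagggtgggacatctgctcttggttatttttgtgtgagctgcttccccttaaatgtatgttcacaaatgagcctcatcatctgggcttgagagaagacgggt
Actg1, chr10:106120902-106121201, minus strand: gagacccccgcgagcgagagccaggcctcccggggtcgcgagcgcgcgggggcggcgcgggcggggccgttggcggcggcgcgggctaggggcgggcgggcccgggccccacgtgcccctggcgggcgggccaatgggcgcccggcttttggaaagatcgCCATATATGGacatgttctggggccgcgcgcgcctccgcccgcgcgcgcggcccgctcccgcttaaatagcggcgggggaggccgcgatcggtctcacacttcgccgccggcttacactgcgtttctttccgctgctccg
Fhl2, chr9:52923277-52923576, minus strand: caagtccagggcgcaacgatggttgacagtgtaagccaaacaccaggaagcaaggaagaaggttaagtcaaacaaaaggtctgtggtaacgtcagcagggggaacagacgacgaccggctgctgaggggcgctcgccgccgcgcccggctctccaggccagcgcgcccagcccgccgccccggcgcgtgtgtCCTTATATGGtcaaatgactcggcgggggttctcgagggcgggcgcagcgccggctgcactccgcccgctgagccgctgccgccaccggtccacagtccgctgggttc
The Acta2 promoter held no exact CArG box and a pair of CArG-like runs that begin at -134 and -84 from the start. Fhl1 held an exact box at -102 and fell, whereas Actg1, with a box at -90, and Fhl2, with a box at -58, did not pass the test. For Fhl1 and Fhl2 only 1 of the listed promoters is shown. Another of Fhl1, at chrX:139645222-139645521, held no CArG box or CArG-like run, and another of Fhl2 held a box at -95. Which start these cells use was not tested. Over both strands a CArG box lay in 8 of 53 promoters of the thin filament and myosin lists (15.1%) and in 548 of 33469 promoters of all genes (1.64%). Among the 23 promoters of members that fell at least 2-fold it lay in 2 (8.7%). These shares cover 46 of the 55 tested members and 21 of the 26 that fell at least 2-fold, and leave out Tagln, Myh11, Lmod1 and Myl9 among others. A match is a description of these letters only.

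Among SRF, its cofactors and the TEAD factors, 11 of 18 fell and 2 rose (median log2 fold change -0.60), or 6 and 2 without libraries 2 and 4. Srf itself read 71.3, 94.8, 102 and 85.2 TPM in control and 57.8, 61, 75 and 58.1 TPM in Myocd-LSD1, with a small overlap (log2 fold change -0.48 ± 0.13, adjusted p = 0.011), and did not pass without libraries 2 and 4 (-0.41, adjusted p = 0.0941). Mkl1, the myocardin-related cofactor MRTF-A, fell without overlap (log2 fold change -1.02 ± 0.15, adjusted p = 0.00011), as did Tead3 (-0.97 ± 0.14). Ankrd1, a stretch-responsive target, read 1173, 890.5, 931 and 654 TPM in control and 322, 15, 510.4 and 8.45 TPM in Myocd-LSD1. Libraries 2 and 4 were far below the rest (log2 fold change -3.66 ± 0.97, adjusted p = 0.00925, against -1.14, adjusted p = 0.0286 without them), and the log2 fold change ranged from -4.61 to -2.69 with a single Myocd-LSD1 library left out. The ternary complex factors Elk3 and Elk4, which share SRF with myocardin, were the 2 that rose, with log2 fold changes of 0.73 ± 0.14 and 0.51 ± 0.12.

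Of 48 other transcription factors of vascular and mesenchymal cells, 15 rose and 11 fell. Snai2, a repressor of epithelial genes, read 15.4, 9.34, 9.98 and 14.2 TPM in control and 75.3, 96.3, 48.1 and 122 TPM in Myocd-LSD1, where every library exceeded every control (log2 fold change 2.66 ± 0.31, adjusted p = 1.16e-05). Sox9 and Runx2, which direct cartilage and bone formation, rose with log2 fold changes of 1.40 ± 0.19 and 1.58 ± 0.20, as did Runx1 (1.29 ± 0.18) and Msx1 (1.78 ± 0.28). Klf4, a factor that represses contractile genes in SMC, read 119.8, 33.5, 288 and 261 TPM in control and 318, 597, 381 and 665 TPM in Myocd-LSD1, above every control (log2 fold change 1.82 ± 0.54, adjusted p = 0.018). It did not pass without libraries 2 and 4 (1.39, adjusted p = 0.158) or without library 4 alone (adjusted p = 0.0506), and its log2 fold change was 1.17 without control library 2. Meox2, a homeobox factor of the vessel wall, read 7.2, 5.84, 9.58 and 4.62 TPM in control and was listed at 0 in all 4 Myocd-LSD1 libraries. Hopx, a homeodomain protein that antagonizes SRF in the mouse heart, read 31.7, 34.3, 74.5 and 19.7 TPM in control and 0.08, 0, 0.19 and 0.09 TPM in Myocd-LSD1, almost none. Six2 fell (log2 fold change -3.03 ± 0.27). Of 18 HOX genes 6 fell and 4 rose. Among them Hoxd13 fell from 115, 136, 92.7 and 97.4 TPM to 32.6, 12.6, 58.1 and 11 TPM and its paralog Hoxa13 rose from 0.43, 0.31, 0 and 0.4 TPM to 3.14, 5.73, 2.07 and 7.05 TPM, both without overlap. Without libraries 2 and 4 the log2 fold change of Hoxd13 was -1.30, adjusted p = 0.000629, against -2.20 ± 0.37 with all libraries.

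Of 8 regulators of G protein signalling 2 rose and 2 fell, or 1 and 2 without libraries 2 and 4. Rgs4, which switches off Gq and Gi proteins, read 618, 840.4, 536 and 642 TPM in control and 0.5, 0.09, 0.77 and 0.07 TPM in Myocd-LSD1, a fall to near 0 in every library (log2 fold change -8.94 ± 0.33, adjusted p = 2.59e-10). Rgs5, also a pericyte marker, read 226, 996, 222 and 1115 TPM in control. It read 1.79, 0.21, 0.24 and 0.24 TPM in Myocd-LSD1 (log2 fold change -8.33 ± 0.57, adjusted p = 7.05e-08). Rgs2, a regulator that acts on Gq, read 155, 81.4, 345 and 304 TPM in control and 392.3, 731.6, 625.1 and 469.9 TPM in Myocd-LSD1. It moved the other way without overlap (log2 fold change 1.49 ± 0.49, adjusted p = 0.0312), but did not pass without libraries 2 and 4 (1.37, adjusted p = 0.139), nor with Myocd-LSD1 library 2 or 3 or control 1 or 2 left out alone. Over 26 receptors of SMC 8 fell and 6 rose. S1pr1, a sphingosine-1-phosphate receptor, Adra1b, an alpha-1 adrenergic receptor, and Tbxa2r, the thromboxane receptor, fell with log2 fold changes of -2.24 ± 0.27, -1.83 ± 0.26 and -1.81 ± 0.25. Ramp3 and Ramp2, partners of the adrenomedullin receptor, rose (2.98 ± 0.34 and 2.09 ± 0.22), together with the serotonin receptor Htr2a (2.30 ± 0.27) and the protease-activated receptor F2rl1 (2.62 ± 0.32).

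The nitric oxide and cyclic nucleotide pathway, which relaxes SMC, had 18 falls and 6 rises among 32 tested genes (median log2 fold change -0.49). Gucy1b3, the beta subunit of the nitric oxide receptor guanylate cyclase, read 25.6, 26.8, 46.1 and 31.3 TPM in control and 0, 0, 0.15 and 0 TPM in Myocd-LSD1, so it was listed at 0 in 3 of the 4 libraries. Npr1 and Npr3, receptors of natriuretic peptides, fell with log2 fold changes of -1.85 ± 0.21 and -2.93 ± 0.39. Mrvi1, a target of cGMP-dependent kinase at the calcium store, fell as well (-3.98 ± 0.41). Without libraries 2 and 4 Npr3 was at -2.22, adjusted p = 0.000384 and Mrvi1 at -4.81, adjusted p = 9.39e-08. Phosphodiesterases, which break down cyclic nucleotides, split. Pde5a, specific for cGMP, read 36, 48, 37.8 and 49 TPM in control and 1.32, 0.36, 0.94 and 0.97 TPM in Myocd-LSD1, a fall seen in every library (log2 fold change -4.54 ± 0.32). Pde1c, a calcium-dependent form, read 0.78, 0.36, 0.35 and 0.65 TPM in control and 9.19, 6.78, 4.22 and 2.9 TPM in Myocd-LSD1, a rise in every library (log2 fold change 2.06 ± 0.25), and Pde7b and Pde8a rose too (2.16 ± 0.31 and 1.44 ± 0.21).

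Calcium handling and ion channels showed 16 falls and 13 rises among 43 genes. Cacna1c, the L-type channel that admits calcium for contraction, read 19.8, 25.5, 20.1 and 23.7 TPM in control and 2.71, 2.8, 2.97 and 2.4 TPM in Myocd-LSD1. Both groups were tight and far apart (log2 fold change -2.64 ± 0.15, adjusted p = 8.99e-09). Casq2 and Pln, a calcium buffer and a pump regulator of the sarcoplasmic reticulum, fell (-4.17 ± 0.25 and -3.08 ± 0.57). Ano1, a calcium-activated chloride channel, read 2.68, 4.27, 1.35 and 2.21 TPM in control and 61.3, 71.2, 48.8 and 30.6 TPM in Myocd-LSD1, a rise in every library (log2 fold change 3.89 ± 0.31). Of the inositol trisphosphate receptors, which release stored calcium, Itpr1 fell (-0.82 ± 0.20) while Itpr3 rose (2.21 ± 0.29).

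**Figure D3:**
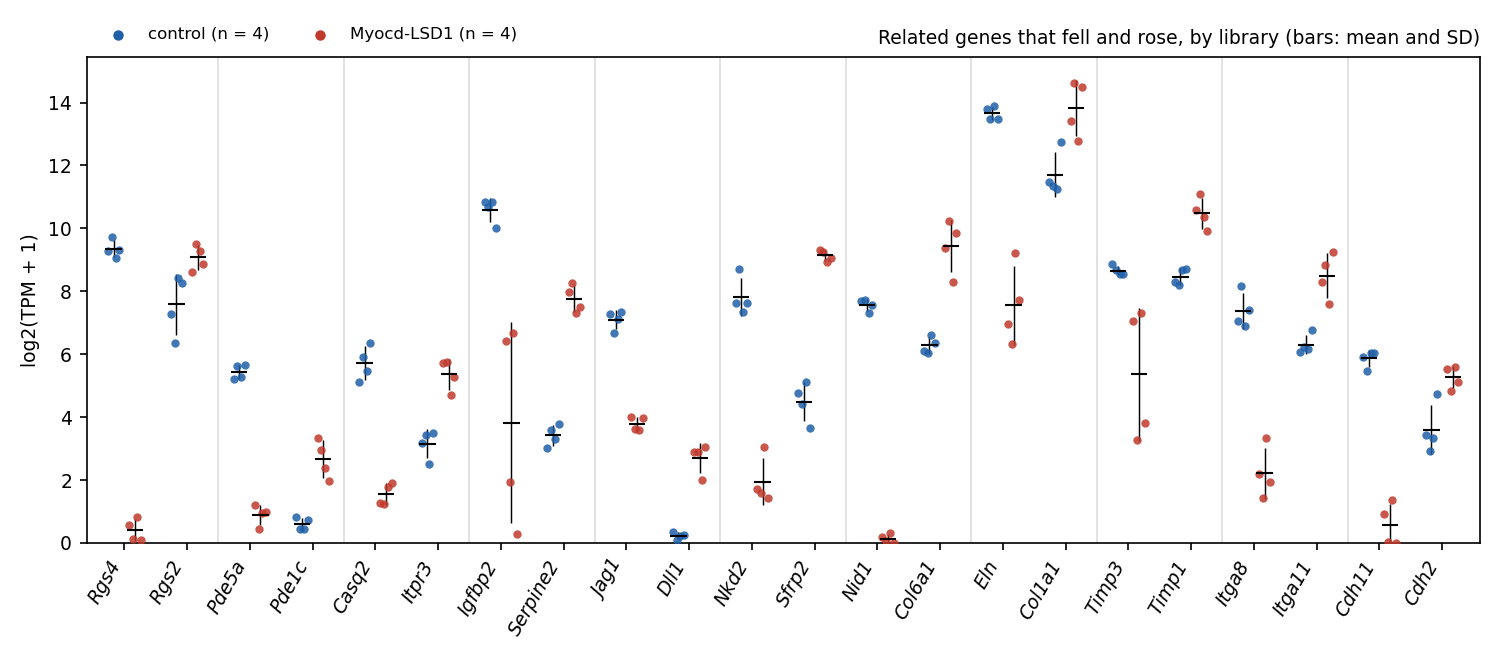
Level of 22 genes on the log2(TPM + 1) scale in each control (blue) and Myocd-LSD1 (red) library, with group mean and SD. Grey lines separate pairs of genes, the first of which fell and the second of which rose. The pairs were chosen after their values were seen. Igfbp2, a growth factor binding protein, and Serpine2, a protease inhibitor, stand side by side but are not related genes. Igfbp2 and Timp3 spread most among the Myocd-LSD1 libraries.

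Growth factor genes moved in both directions. Of 43 genes of the PDGF, FGF, EGF and HGF families and their receptors, 12 fell and 7 rose. Pdgfb, the ligand chain of PDGF-BB, read 18.6, 21.9, 16.4 and 21.5 TPM in control and 0.75, 0.24, 2.98 and 0 TPM in Myocd-LSD1, below every control (log2 fold change -3.58 ± 0.49, adjusted p = 4.98e-05, against -2.96, adjusted p = 0.00191 without libraries 2 and 4). Ptn, pleiotrophin, and Met, the HGF receptor, fell (-5.40 ± 0.35 and -1.42 ± 0.20). Angpt1, the angiopoietin that activates Tie2 on endothelium, read 0.1, 0, 0.05 and 0.09 TPM in control and 34.4, 46.9, 17.4 and 35.2 TPM in Myocd-LSD1, and so appeared in all 4 libraries (log2 fold change 4.94 ± 0.26, adjusted p = 4.73e-09). The PDGF receptors Pdgfra and Pdgfrb did not pass (0.24 ± 0.31 and 0.20 ± 0.15). Of 15 genes of the insulin-like growth factor axis 4 rose and 5 fell, or 4 and 3 without libraries 2 and 4. Igfbp2, a binding protein, read 1813, 1625, 1811 and 1035 TPM in control and 84.7, 2.8, 100.3 and 0.23 TPM in Myocd-LSD1, with almost none in library 4 (log2 fold change -6.76 ± 1.05, against -4.04, adjusted p = 7.56e-07 without libraries 2 and 4). With a single Myocd-LSD1 library left out it ranged from -7.70 to -5.58. Igf2bp3, an RNA-binding protein of fetal tissues, rose from 0.04, 0.47, 0.04 and 0.12 TPM to 20.9, 15.2, 15.1 and 16 TPM (log2 fold change 3.93 ± 0.17).

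TGF-beta signalling in SMC promotes contractile and matrix genes. Of 29 genes 7 rose and 5 fell, or 7 and 2 without libraries 2 and 4. The ligand Tgfb3 read 391, 474, 519 and 498 TPM in control and 74.7, 91, 83.1 and 79.4 TPM in Myocd-LSD1, a fall in every library (log2 fold change -2.50 ± 0.16). The ligand Tgfb1 rose (0.96 ± 0.13), as did the receptors Tgfbr2 (1.11 ± 0.19) and Tgfbr3 (3.66 ± 0.30). Of 24 BMP genes 7 fell and 4 rose, with the ligand Gdf6 lower (-2.85 ± 0.37) and the antagonist Chrd, chordin, higher (2.27 ± 0.21). Of 30 Wnt genes 10 fell and 7 rose. Axin2 and Nkd1, both known Wnt targets and inhibitors, fell (-1.70 ± 0.16 and -1.50 ± 0.26), and Nkd2 fell most (-5.88 ± 0.42). Sfrp2, a secreted Wnt modulator, read 26.3, 20.2, 33.5 and 11.7 TPM in control and 634, 602, 492 and 535 TPM in Myocd-LSD1, a rise in every library (log2 fold change 4.65 ± 0.48).

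Notch signalling maintains mural cells of vessels. Of 16 genes 6 fell and 5 rose, or 3 and 2 without libraries 2 and 4. The ligand Jag1 read 154, 101, 139 and 160.2 TPM in control and 14.9, 11.4, 11 and 14.6 TPM in Myocd-LSD1, with no overlap (log2 fold change -3.31 ± 0.26, adjusted p = 2.49e-07). The receptor Notch3 and the target Hey2 also fell (-2.22 ± 0.40 and -2.50 ± 0.41), while the ligand Dll1 rose from 0.28, 0.06, 0.16 and 0.19 TPM to 6.49, 6.4, 2.99 and 7.27 TPM. Of 34 axon guidance ligands and receptors, which also steer vessels, 10 rose and 8 fell. Sema3a and Sema3c rose (3.69 ± 0.32 and 2.06 ± 0.20) and Sema3d and Sema3e fell (-2.59 ± 0.29 and -1.58 ± 0.21). The receptor Robo1 read 12.2, 9.6, 8.16 and 11.3 TPM in control and 101, 86.4, 57.3 and 90.1 TPM in Myocd-LSD1, higher in every library (log2 fold change 2.89 ± 0.24). Of 37 early response and ERK feedback genes 13 rose and 4 fell, among them Etv5, an ERK-induced factor, with a log2 fold change of 2.04 ± 0.26, and Dusp7, a phosphatase of ERK, with 1.57 ± 0.25.

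Matrix genes moved in both directions. Elastin (Eln), the elastic protein of the aortic wall, read 14327, 11322, 15036 and 11473 TPM in control and 122, 79.2, 599.8 and 209 TPM in Myocd-LSD1. It fell in every library, and library 3 kept the most (log2 fold change -6.10 ± 0.51, adjusted p = 4.92e-07). Of 20 elastic fibre genes 6 fell and 3 rose, with Fbln5 and Lox, which assemble and crosslink elastin, lower (-1.68 ± 0.25 and -0.87 ± 0.17) and Efemp2, another assembly factor, higher (1.38 ± 0.10). Of 34 genes of collagens and their processing 12 rose and 12 fell. Col1a1, the main fibrillar chain, read 2829, 2621, 2438 and 6921 TPM in control and 10953, 25197, 7068 and 23037 TPM in Myocd-LSD1. All 4 values exceeded the controls, though library 3 only narrowly exceeded control 4 (log2 fold change 2.12 ± 0.41, adjusted p = 0.000992, against 1.40, adjusted p = 0.0227 without libraries 2 and 4). Col6a1, a chain of the beaded filaments around cells, read 68, 64.8, 96.9 and 81.1 TPM in control and 662, 1194, 313 and 919 TPM in Myocd-LSD1, and Col6a2 followed it (3.15 ± 0.31 and 2.55 ± 0.34). Without libraries 2 and 4 Col6a1 was at 2.55, adjusted p = 3.5e-05 and Col6a2 at 1.91, adjusted p = 0.000738. Col3a1, a fibrillar chain of vessels, did not pass (0.23 ± 0.40), at -0.62, adjusted p = 0.166 without those libraries.

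Basement membrane genes, which encode the sheet around each SMC, had 14 falls and 3 rises among 26 (median log2 fold change -0.65). Nid1, nidogen, which links laminin to collagen IV, read 208, 208, 158 and 189 TPM in control and 0.14, 0.05, 0.24 and 0 TPM in Myocd-LSD1, close to nothing in every library. The collagen IV chains Col4a1, Col4a5 and Col4a6 fell (-0.91 ± 0.16, -1.35 ± 0.16 and -3.12 ± 0.41), as did the laminin chain Lamb1 (-0.99 ± 0.19), and Col4a6 was at -2.34, adjusted p = 0.000787 without libraries 2 and 4. Lamb3, a laminin chain of epithelia, rose from 0.16, 0.12, 0.08 and 0.13 TPM to 12.9, 23.3, 3.17 and 9.02 TPM (log2 fold change 3.28 ± 0.44). Of 31 proteoglycan and hyaluronan genes 14 fell and 7 rose. Ogn and Lum, small leucine-rich proteoglycans, fell (-3.95 ± 0.55 and -3.43 ± 0.43), whereas Hpse, heparanase, which cuts heparan sulfate, rose from 2.41, 1.2, 0.9 and 0.99 TPM to 99.9, 121, 58.4 and 85.6 TPM (log2 fold change 5.27 ± 0.25, adjusted p = 1.81e-09). Of 29 matricellular genes 11 fell and 8 rose. Postn, periostin, read 9374, 10218, 4893 and 9781 TPM in control and 302, 252, 447 and 100.3 TPM in Myocd-LSD1 (log2 fold change -5.08 ± 0.38), and Thbs1, thrombospondin, read 5406, 5449, 3809 and 6345 TPM in control and 10296, 10736, 10071 and 9877 TPM in Myocd-LSD1. Neither pair of groups overlapped. Without libraries 2 and 4 Ogn was at -4.65, adjusted p = 0.00019 and Postn at -4.48, adjusted p = 1.54e-06.

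Among 50 proteases and inhibitors 18 rose and 12 fell. Serpine2, an inhibitor of thrombin and plasminogen activators, read 7.15, 11, 8.93 and 12.9 TPM in control and 250.1, 306, 158 and 181 TPM in Myocd-LSD1, higher throughout (log2 fold change 4.33 ± 0.25, adjusted p = 1.25e-08). The tissue inhibitors of metalloproteinases split. Timp1 rose from 310.3, 294, 411 and 414 TPM to 1525, 2166, 1300.5 and 962 TPM and Timp2 rose by a log2 fold change of 1.09 ± 0.12. Timp3 read 468, 404, 377 and 372 TPM in control and 132, 8.61, 157 and 13 TPM in Myocd-LSD1, lowest in libraries 2 and 4 (log2 fold change -3.30 with SE 0.998, adjusted p = 0.0196). It did not pass without them (-1.48, adjusted p = 0.291) or with either left out alone, and ranged from -3.95 to -2.60 with a single Myocd-LSD1 library left out. Libraries 1 and 3 still lay below every control, and the spread in this test is estimated over all groups, the other groups included. The lysosomal cathepsins Ctsb, Ctsl and Ctsh rose (1.18 ± 0.13, 1.10 ± 0.15 and 3.17 ± 0.39).

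Of 17 integrins, the receptors that hold cells to matrix, 6 fell and 4 rose. Itga8 read 132, 285, 117 and 167 TPM in control and 3.54, 1.69, 9.08 and 2.82 TPM in Myocd-LSD1, and Itga1, a collagen receptor, fell as well (-5.15 ± 0.35 and -2.73 ± 0.35, the latter at -2.02, adjusted p = 0.000406 without libraries 2 and 4). Itga11, which binds fibrillar collagen, read 66.3, 73.5, 70.5 and 107 TPM in control and 312, 459, 193 and 609.8 TPM in Myocd-LSD1, above every control (log2 fold change 2.20 ± 0.45). Among 32 cadherin and junction genes 9 fell and 8 rose. Cdh11, a cadherin of mesenchymal cells, read 59.5, 43.4, 64.8 and 65.2 TPM in control and 0.88, 0.03, 1.56 and 0 TPM in Myocd-LSD1, nearly none, while Cdh2, N-cadherin, and Cdh3, P-cadherin, rose (1.67 ± 0.32 and 1.15 ± 0.17). Of 51 focal adhesion and actin regulator genes 26 fell and 8 rose, or 17 and 6 without libraries 2 and 4. Vinculin (Vcl) and Tln1, talin, which tie integrins to actin, fell (-1.46 ± 0.22 and -1.02 ± 0.14), as did Dstn, an actin-severing protein (-1.71 ± 0.18). The talin Tln2 and the parvin Parvb, which serve the same sites, rose (1.68 ± 0.31 and 2.75 ± 0.44).

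In metabolism, 18 of 50 targets of the oxidative stress factor NRF2 and aldo-keto reductases rose and 3 fell. Akr1b10, an aldo-keto reductase, read 3.18, 1.88, 1.72 and 2.04 TPM in control and 229, 214, 142 and 224 TPM in Myocd-LSD1, higher in every library (log2 fold change 5.98 ± 0.30). Txn1, thioredoxin, read 339.7, 357, 370.2 and 393 TPM in control and 1749.8, 742, 2311 and 1135 TPM in Myocd-LSD1, again above every control and highest in libraries 1 and 3 (log2 fold change 1.90 ± 0.44). The heme oxygenase Hmox1, the glutathione synthesis subunits Gclc and Gclm and the reductase Txnrd1 did not pass, at 0.50 ± 0.27, -0.25 ± 0.23, -0.17 ± 0.14 and 0.50 ± 0.20. Me1, malic enzyme, fell (-1.97 ± 0.12). Among glycolysis and hypoxia genes, 13 of 38 rose and 5 of 38 fell, or 12 and 3 without libraries 2 and 4, with the lactate carrier Slc16a1 higher (1.59 ± 0.17) and Pfkfb3, a driver of glycolytic flux, lower (-1.15 ± 0.14). Among genes of the response to amino acid shortage and unfolded proteins, 17 of 43 rose and 1 fell, or 8 and 1 without libraries 2 and 4, and Mthfd1l, a mitochondrial folate enzyme, rose (1.53 ± 0.24). Of 37 cholesterol and fatty acid synthesis genes 9 fell and 1 rose, or 4 and 0 without those libraries.

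Few genes of DNA replication and mitosis were called with all libraries, and their levels differed among the libraries of the line. Of 38 DNA replication genes 4 rose and 0 fell, and of 39 mitosis genes 1 rose and 1 fell. Without libraries 2 and 4 these counts became 13 and 0, and 3 and 0, and the median of the mitosis list turned from -0.23 to 0.42 on the log2 scale. The mitosis list summed to 627, 542, 446 and 742 TPM in control. In Myocd-LSD1 it summed to 864, 350.2, 717 and 321 TPM, so libraries 1 and 3 lay near or above the highest control and libraries 2 and 4 below the lowest. Among D cyclins, CDK inhibitors and p53 targets, which control the cycle, 8 of 34 fell and 5 rose. That share called, 38.2%, was beside 32.2% of all genes. Rb1, the retinoblastoma brake on the cycle, fell (-1.74 ± 0.16), as did Cdkn1a, p21 (-1.56 ± 0.28).

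Of 50 chemokine, cytokine and NF-kB feedback genes 12 rose and 9 fell, or 11 and 3 without libraries 2 and 4. Il33, an alarmin cytokine, read 6.43, 2.48, 4.35 and 8.41 TPM in control and 157, 51.6, 84.2 and 163 TPM in Myocd-LSD1, higher in every library (log2 fold change 4.11 ± 0.58). Lcn2, lipocalin, rose too (2.55 ± 0.32). Of 44 interferon-stimulated and antigen presentation genes 11 rose and 6 fell, or 10 and 3 without those libraries, with Isg15 lower (-3.12 ± 0.59) and Usp18, which removes Isg15 from proteins, higher (2.41 ± 0.38). Of 24 H3K4 methylation enzymes and readers 4 rose and 1 fell, none by 2-fold, or 5 and 0 without those libraries. Of 16 imprinted genes 6 fell and 1 rose. Peg3, a paternally expressed zinc finger gene, read 5.04, 6.2, 3.39 and 3.81 TPM in control and 0.07, 0.01, 0.01 and 0.01 TPM in Myocd-LSD1, and Snurf and Snrpn, neighbours in 1 imprinted domain, had log2 fold changes of -1.34 ± 0.17 and -1.07 ± 0.25; these 2 overlap in the genome and may share reads.

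Genes of the Y chromosome varied among the Myocd-LSD1 libraries. Eif2s3y, a translation factor gene, read 149.9, 140.1, 170.0 and 145 TPM in control and 143, 47.8, 179.9 and 79.4 TPM in Myocd-LSD1, where libraries 2 and 4 were below every control and the test did not pass (log2 fold change -0.59 ± 0.29, adjusted p = 0.133). Kdm5d, a Y-linked demethylase of H3K4, read 24.3, 25.6, 20.6 and 22.9 TPM in control and 21, 6.1, 19.3 and 9.41 TPM in Myocd-LSD1. Its fall (log2 fold change -0.85 ± 0.27, adjusted p = 0.0253) was not called without libraries 2 and 4 (-0.20, adjusted p = 0.288), nor with either of them or control 1 or 2 left out alone. Uba1y, a ubiquitin-activating enzyme, was listed at 0 in control libraries 1, 2 and 4 and at 0.05 TPM in control 3, against 237, 66.3, 274 and 107 TPM in Myocd-LSD1. Relative to Myocd-LSD1 library 1, libraries 2, 3 and 4 held 33.3%, 125% and 55.4% of Eif2s3y, 29.1%, 92.3% and 44.9% of Kdm5d, and 28.0%, 115% and 45.0% of Uba1y. The X-linked copy Uba1 read 204, 184, 157 and 158 TPM in control and 226, 164, 217 and 151 TPM in Myocd-LSD1, and how reads were divided between the copies is not stated, so the Uba1y values are uncertain. In these bulk libraries fewer cells of a type and less RNA per cell cannot be told apart.

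**Figure D4:**
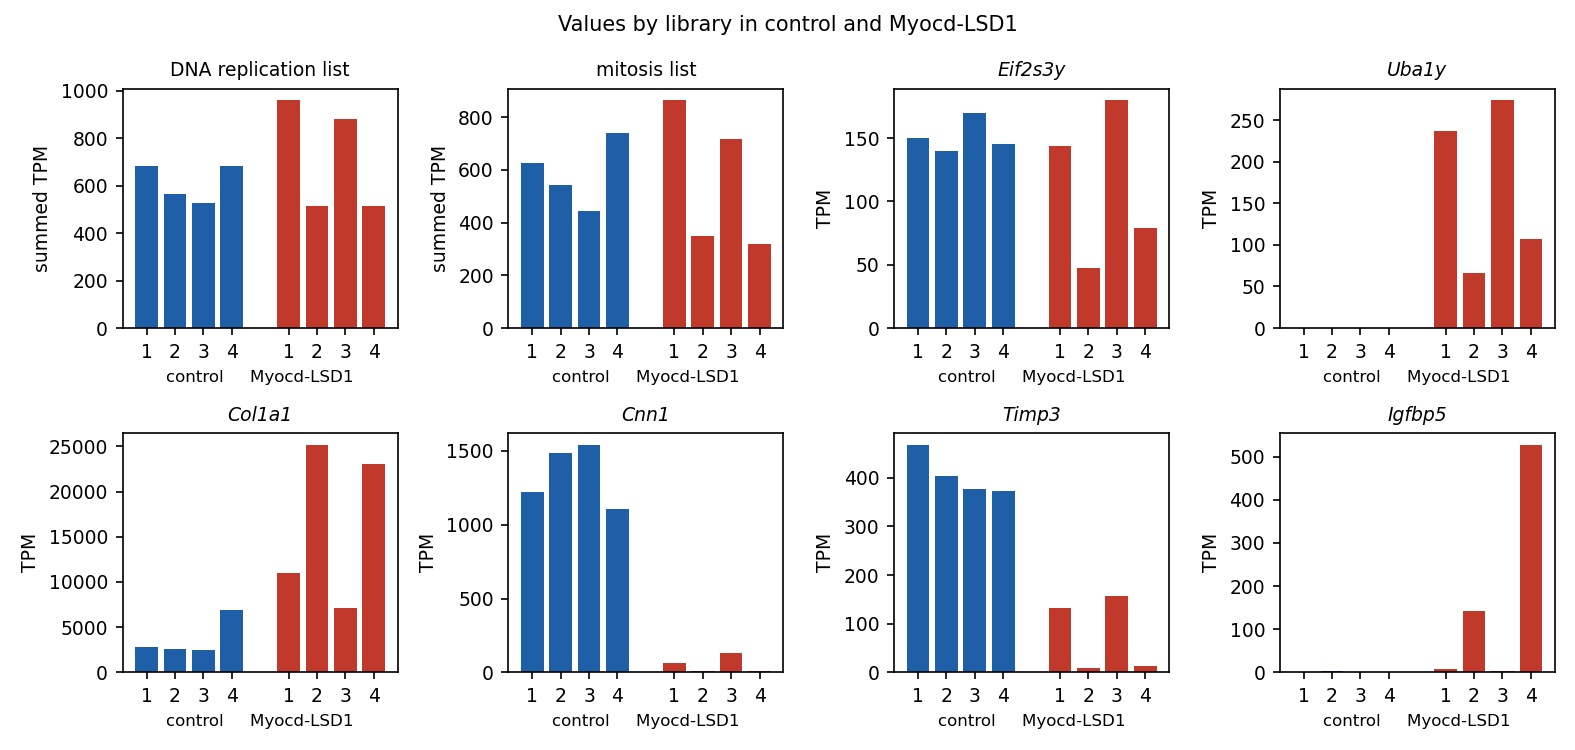
Bars give the summed TPM of the DNA replication and mitosis lists and the TPM of 6 genes in control libraries 1 to 4 (blue) and Myocd-LSD1 libraries 1 to 4 (red), each panel from 0. Libraries 2 and 4 of Myocd-LSD1 are lower than libraries 1 and 3 in the cell cycle sums, Eif2s3y, Uba1y, Cnn1 and Timp3 and higher in Col1a1 and Igfbp5.

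Markers of other cell types moved beside these results, and their part in them was not tested. Of 13 smooth muscle markers 12 fell and Des rose, and their sum was 23387 to 29439 TPM in control and 4660.2 to 7648 TPM in Myocd-LSD1. Of 8 tested pericyte markers 6 fell and 1 rose, or 4 and 0 without libraries 2 and 4, and Kcnj8, a potassium channel of pericytes, was listed at 0 in all 4 Myocd-LSD1 libraries. Endothelial Cdh5, Emcn, Sox17 and Sox18 were listed at 0 in all 8 libraries, and of the 4 tested members of that list 2 rose and 2 fell, or 2 and 1 without libraries 2 and 4. Flt1 and Egfl7 rose (2.69 ± 0.41 and 1.57 ± 0.16), Esam and Erg fell (-1.62 ± 0.44 and -1.54 ± 0.35, with Esam at -1.01, adjusted p = 0.152 without those libraries), and the list summed to 23.9 to 35.5 TPM in control and 64.3 to 81.2 TPM in Myocd-LSD1. Of 6 striated muscle markers 5 fell, led by Tnnc1, troponin C (-5.52 ± 0.51, against -4.58, adjusted p = 1.93e-05 without libraries 2 and 4), and the list summed to 836 to 1346 TPM in control and 26.8 to 113 TPM in Myocd-LSD1. Of 4 tested epithelial and mesothelial markers 2 rose and 1 fell, or 2 and 0 without libraries 2 and 4, and the list summed to 35.8 to 58.4 TPM in control and 60.1 to 252 TPM in Myocd-LSD1. Msln, mesothelin, rose from 1.87, 0.88, 1.52 and 4.49 TPM to 50.3, 189, 7.88 and 135 TPM (log2 fold change 4.32 ± 0.68, against 2.86, adjusted p = 0.00202 without libraries 2 and 4). Krt8, a keratin, rose (1.01 ± 0.22) and the mesothelial gene Upk3b fell (-1.28 ± 0.45), with Upk3b at -0.25, adjusted p = 0.599 without those libraries, and not called with Myocd-LSD1 library 2 or 4 or control 1, 2 or 3 left out alone. The mesothelial factor Wt1 was listed at 0 in all 8. The pan-leukocyte gene Ptprc was also listed at 0 in all 8, as were the neural genes Sox10 and Snap25. The 1 tested leukocyte marker rose at a low level (log2 fold change 0.84), from 0.14 to 0.64 TPM in control to 1.17 to 1.62 TPM in Myocd-LSD1. Of 2 tested neural markers 1 fell and 0 rose. An exact 0 in these values can be a failed estimate, since Rps20, a ribosomal protein gene that every cell uses, was listed at 0 in all 15 libraries. Of 9 tested fibroblast markers 2 rose and 3 fell, or 1 and 2 without libraries 2 and 4, Dcn stayed under 1 TPM in all 8 libraries, and the list summed to 313 to 521 TPM in control and 166 to 316 TPM in Myocd-LSD1. Of 7 tested cartilage and bone markers 4 rose and 1 fell, Sp7 was listed at 0 and Acan and Col2a1 stayed under 1 TPM in all 8.

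Genes outside these lists were among the largest changes. Tspan8, a tetraspanin, read 0, 0.17, 0 and 0 TPM in control and 56.1, 31.9, 41.4 and 18 TPM in Myocd-LSD1, and its relative Cd9 read 41.5, 61, 67.6 and 32.1 TPM in control and 0.07, 0, 0.24 and 0 TPM in Myocd-LSD1. They moved in opposite directions, each without overlap. Tfec, a transcription factor of the MITF family, was listed at 0 in all 4 controls and read 50.6, 42.6, 64.5 and 51.6 TPM in Myocd-LSD1. Magea11, a cancer-testis antigen gene, rose from 1.14, 0.73, 0.92 and 2.23 TPM to 108, 140.4, 82.6 and 127 TPM (log2 fold change 5.69 ± 0.23, adjusted p = 6.6e-10). Cd200r1, an inhibitory receptor best known on leukocytes, read 0.67, 0.36, 0.4 and 0.66 TPM in control and 60.74, 59.98, 61.82 and 71.46 TPM in Myocd-LSD1, higher throughout. Pdpn, podoplanin, fell from 58, 61.1, 45.3 and 19.7 TPM to 0.14, 0.05, 0.16 and 0 TPM (log2 fold change -5.32 ± 0.37).

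**Figure D5:**
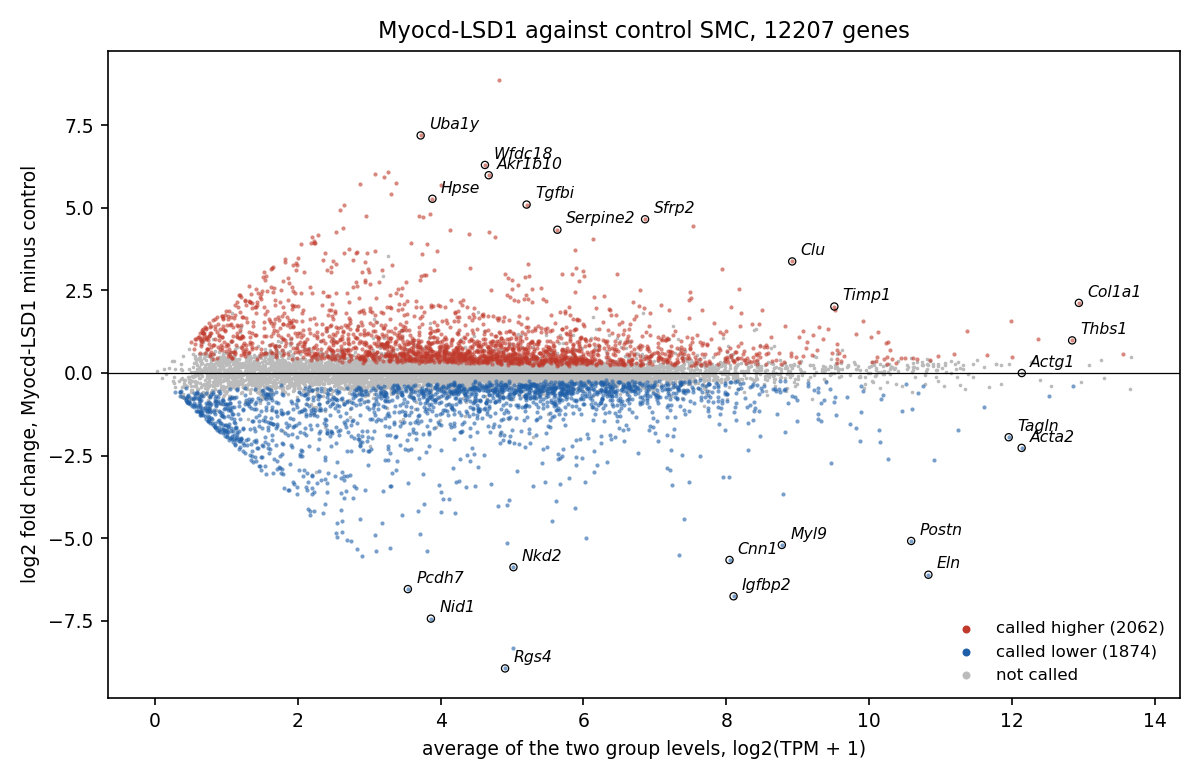
Log2 fold change, Myocd-LSD1 minus control, against the average level of both groups on the log2(TPM + 1) scale for 12207 genes, with 2062 called higher in red, 1874 called lower in blue and the rest in grey. Eln, Postn, Acta2 and Tagln fell from high levels, Col1a1 and Thbs1 rose at high levels, and Actg1 lies at 0.

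Against the other line, Myocd-LSD1NF, 3877 genes were called (31.8%), and against PDGF-BB 3792 (31.1%). These comparisons share the Myocd-LSD1 libraries with the one above. Acta2 was lower in Myocd-LSD1 than in Myocd-LSD1NF (log2 fold change -2.10, adjusted p = 0.000123) and did not pass against PDGF-BB (-0.32, adjusted p = 0.505). Eln had log2 fold changes of -4.97 (adjusted p = 4.55e-06) and -2.91 (adjusted p = 0.00106), and Rgs4 of -9.09 (adjusted p = 1.52e-10) and -5.79 (adjusted p = 3.15e-08). Sfrp2 had 5.91 (adjusted p = 4.69e-07) and 5.38 (adjusted p = 3.81e-06), and Akr1b10 had 5.29 (adjusted p = 9.75e-09) and 2.09 (adjusted p = 0.000232). Not every gene set the lines apart in this way. Pdpn averaged 46.02 TPM in control and 1.35 TPM in Myocd-LSD1NF, and did not pass between the lines (adjusted p = 0.0527). Myl9 passed between the lines (adjusted p = 0.000354). Its mean in Myocd-LSD1NF, 426.5 TPM, still lay far below the control mean of 2613 TPM. Myocd-LSD1NF was not tested against control.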

How the data were processed

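RNA was taken with an RNeasy kit and DNase I, and libraries were made with the TruSeq Stranded mRNA kit, per the labels' protocols. The authors deposited TPM (transcripts per 1000000) per gene and library, each library summing to the same total. For the aligner, the genome build and the annotation, nothing is given in the sources used here. TPM keeps no read depth, so precision rests on the spread between libraries. The 4 other value columns, the authors' group means, were not used, and 26 entries whose symbols had turned into dates were kept under their gene IDs.

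Genes with at least 1 TPM in at least 3 of 15 libraries were put on the log2(TPM + 1) scale and fitted with limma 3.58.1 (R 4.3.3). The fit had 1 mean per group over all 15 libraries and a mean-variance trend, with 2-sided adjusted p-values (Benjamini-Hochberg over all 12207 genes) under 0.05 as calls. Other steps used pandas 2.3.3 and numpy 2.4.6 in Python 3.11.15, and figures used matplotlib 3.10.9. The fit was tested on simulated data. Alternatives were other pseudocounts, filters and scalings, a replicate block, the 2 groups alone, libraries left out and libraries averaged in pairs.

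The gene lists, 53 in all, held 1758 genes. Of these 1687 matched an entry by symbol or alias or, failing that, by gene ID, and 1272 were tested. Members and lists were chosen with earlier results of these data known. Genes were named by a rule. It took the 15 largest changes in each direction among called genes without overlap between the groups and whose higher group averaged 5 TPM or more, and the 6 largest at least 2-fold changes in each direction per list. It also took the 2 most abundant called and not called members per list and the 10 largest shifts in TPM in each direction. A fixed set was always taken (Myocd, Kdm1a, Srf, Acta2, Tagln, Cnn1, Myh11, Smtn, Lmod1, Myl9, Klf4, Eln, Uba1y and Eif2s3y). Other named genes, among them Cald1, Tpm1, Rock1, Elk3, Elk4 and Tgfb1, were chosen after their values were seen. Promoters, from 250 bases before to 50 after the start, were matched by symbol to RefSeq tables of build GRCr8.

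Libraries of the 2 groups that share a number correlated at 0.245, -0.071, 0.201 and 0.163 in their deviations from the group means, so the numbers were not taken to pair them.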

Additional observations from a re-analysis of the deposited data

Results flagged for a closer look

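In each group of 4 libraries the gap between the highest or lowest library and its nearest neighbour was set against the group's range for 174 genes of the report, and 21 of 348 groups had a library that stood apart. For independent, normally distributed values chance gives about 1 in 20 groups. These genes share the same libraries, and TPM near 0 are not so distributed, so the count cannot be weighed against that rate. For Gucy1b3, Tspan8 and Uba1y the other libraries were listed at 0, which makes the gap equal to the range.

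Among contractile genes, library 3 of Myocd-LSD1 stood above its group for Cald1 (702.9 TPM, others 466 to 507) and Actn4 (605.8 TPM, others 465 to 489), and library 4 stood below it for Tagln2 (816.5 TPM, others 953 to 972). Library 1 of Myocd-LSD1 stood above its group for Efemp2 (1116 TPM, others 978 to 992), Elk4 (24.91 TPM, others 19.5 to 20.4), Igf2bp3 (20.95 TPM, others 15.05 to 15.97) and Peg3 (0.07 TPM, others 0.01). Library 3 of Myocd-LSD1 stood above its group for F2rl1 (33.14 TPM, others 11.7 to 12.8), Nkd2 (7.29 TPM, others 1.71 to 2.31) and Gucy1b3 (0.15 TPM, the others listed at 0). Library 4 of Myocd-LSD1 was highest for Cd200r1 (71.46 TPM, others 59.98 to 61.8).

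In control, library 4 held 6921 TPM of Col1a1 against 2438 to 2829 TPM in the others and 6.72 TPM of Flt1 against 0.8 to 1.34. The same library held 6.02 TPM of Tbxa2r against 9.66 to 10.07. Control library 3 held the least Postn, 4893 TPM against 9374 to 10220 TPM in the others, and the least Lox, 745.4 TPM against 1033 to 1077. It was also the control library with Uba1y above 0, at 0.05 TPM. Control library 2 held 419.6 TPM of Nkd2 against 162 to 196, 82.61 TPM of Tgfb1 against 67.3 to 68.5, and 0.17 TPM of Tspan8 where the others were listed at 0. Control library 1 held 272.4 TPM of Cdkn1a against 129 to 140.3 in the others.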

How the results depend on the processing

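Of the counts of genes called, 2 changed by over 1.5 times under the alternatives. Genes called lower numbered 1229 without Myocd-LSD1 libraries 2 and 4, against 1874. Genes called and changed at least 2-fold numbered 811 with a pseudocount of 5 and 964 when genes under a mean of 5 TPM were dropped, against 1475; both settings compress or remove low genes. With 1 library left out, total calls ranged from 3253 to 3930, calls higher from 1607 to 2036, calls lower from 1489 to 1905 and calls at least 2-fold from 1375 to 1574. Averaging the Myocd-LSD1 libraries in pairs left 2830 calls, and fitting the 2 compared groups alone gave 3565. Median-of-ratios scaling gave 2082 higher and 2149 lower. With the replicate number as a block 4246 genes were called, 2236 higher and 2010 lower, 1500 of them at least 2-fold; not every sample correlated best with its own number.

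Of 487 genes carried through all 18 alternatives, 389 were called, 314 of these under every alternative that could be fitted, and no called gene changed direction. Without libraries 2 and 4 of Myocd-LSD1, 64 of these calls were lost. TPM depth is unknown and limits what can be said of genes near 0.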
